A study of Pyrus hybrid rootstock with 24 samples.

Results

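In micro-grafted pear, 100 genes were lower in heterografts than in homografts on the first day after grafting and higher on day 5. They were chosen by their measured values at those stages, from 42812 genes in the deposited data, of which 26895 had a level of at least 1 FPKM (reads scaled to gene length and to library size) in at least 3 of 24 libraries. For every gene the mean log2(FPKM + 1) of the 3 libraries per condition was taken, and the score was the smaller of its shortfall in heterografts on day 1 and its excess in heterografts on day 5. A score of at least 0.5 was reached by 372 genes, 1 of which (Pbr033492.1) was dropped because the study had singled it out by name, and the 100 largest scores of the remaining 371 made up the set. These are called the reversing genes below. All 100 had passed the filter on low values as a condition of entry.

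The homografts joined “Qingzhen D1”, a cross of Pyrus communis L. with Pyrus bretschneideri R., to itself, and the heterografts were QAUP-1 (Pyrus ussuriensis Maxim.) scions on “Qingzhen D1” rootstocks. Both were plantlets grown in tissue culture, joined within silicon tubing, and both therefore received the same wound and the same rootstock. RNA of the graft union, labelled as stem, was sequenced at 1, 5, 9 and 30 days after grafting (DAG), stages named SS, CF, CD and VC, with the prefix S for homografts (SSS, SCF, SCD, SVC) and D for heterografts (DSS, DCF, DCD, DVC). Each of the 8 conditions had 3 libraries, labelled as biological replicates. Only the heterografts contain QAUP-1 tissue, so graft type and scion genotype cannot be told apart, and scion and rootstock RNA were sequenced together. In such bulk tissue, fewer cells of a type and less RNA per cell cannot be told apart either.

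A graft heals in overlapping steps. The cut cells first seal and adhere, callus then proliferates into the gap, cambium forms across the callus, and finally new xylem and phloem reconnect the vessels of scion and rootstock. Wounding by itself rapidly alters the expression of many plant genes, and homografts serve as the reference for a union that carries a wound but no foreign partner. The genes are known here by their identifiers only, because the files do not pair identifiers with gene names, and no function is attached to any member. For the same reason the labelled tissue could not be checked against marker genes.

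The 24 libraries held 10374009 to 13630155 reads on genes, a number recovered from the FPKM steps as described in the methods. The reversing genes took 0.186% to 0.983% of these reads. Summed over the 3 libraries of a condition, the median member had between 102 reads (SVC) and 642 reads (SSS), which makes most members well covered. Fewer than 30 reads were held by 22 members in SVC, 16 in DSS and 14 each in SCF, DCD and DVC. In SCD they were 9, in DCF 5 and in SSS 2. Only 1 member reached 0, in SVC. In several conditions 1 library stood to one side for most members. SCF replicate 2 was the lowest SCF library for 76 of the 100 members, against 37.1% of all genes tested, and SCD replicate 3 was the highest SCD library for 68, against 34.4%. On day 1, SSS replicate 3 was lowest for 63 members (29.4% of all genes tested) and DSS replicate 2 was highest for 70 (30.9%). Where leaving out 1 of these libraries moved a result by much, the value without it is given beside it.

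The reversing genes were most abundant in day-1 homografts. The median member stood at 24.02 FPKM in SSS and 10.7 FPKM in DSS, then at 7.35 FPKM in SCF and 15.5 FPKM in DCF. On day 9 the medians were 8.08 FPKM in SCD and 6.27 FPKM in DCD, and on day 30 they were 4 FPKM in SVC and 6.91 FPKM in DVC. Averaged over the 100 members, log2(FPKM + 1) was 4.77, 4.73 and 4.42 in the SSS libraries and 3.48, 3.79 and 3.28 in the DSS libraries. In SCF it was 3.39, 2.78 and 3.31, and in DCF it was 4.25, 4.20 and 4.01. The libraries of the graft types did not overlap at either stage, which the choice of members fixes. The same average over all genes tested lay between 3.45 and 3.68 in every library.

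**Figure D1:**
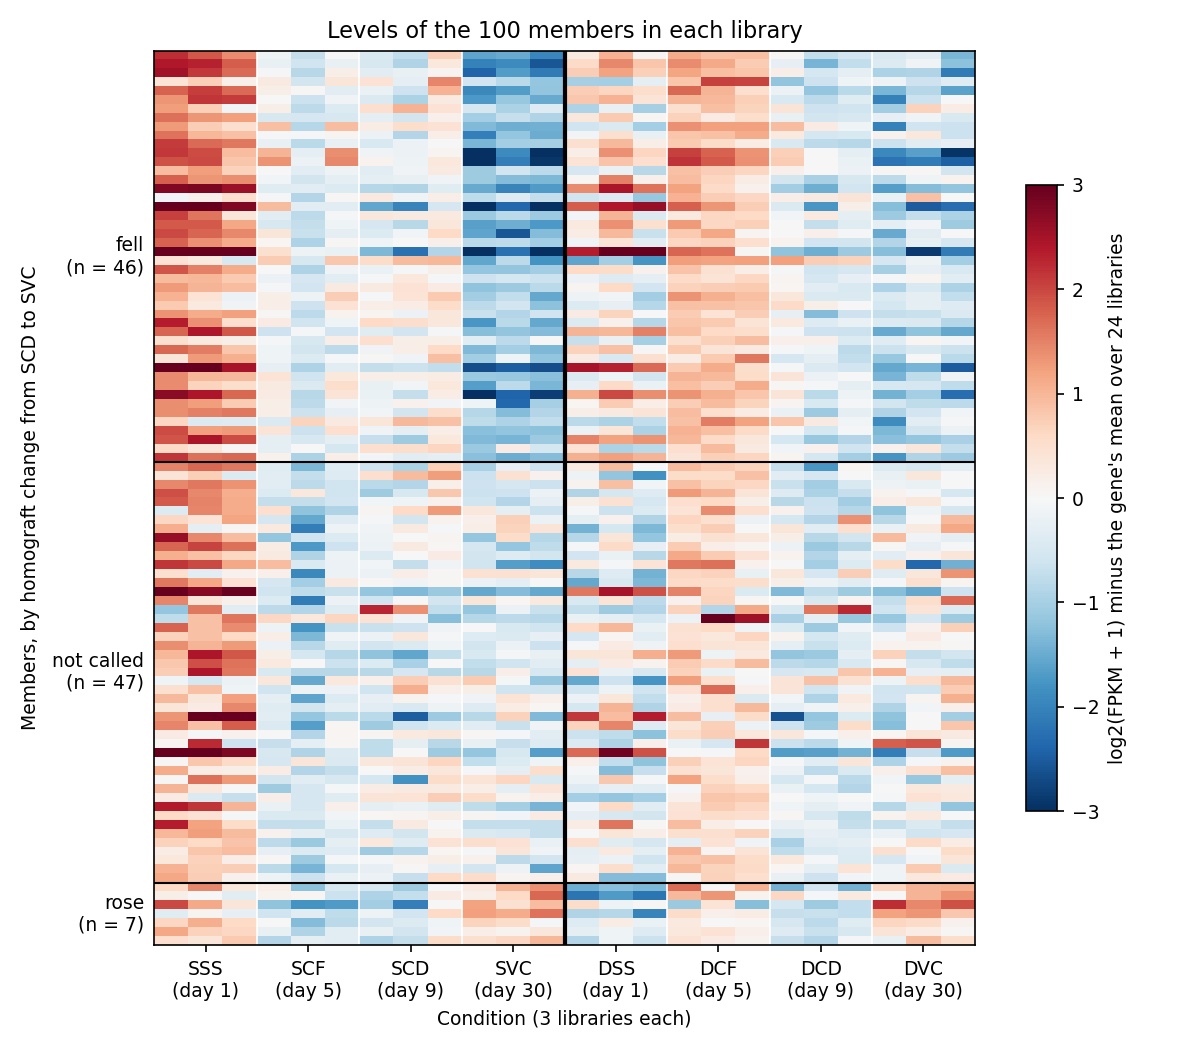
Heat map of the 100 reversing genes in the 24 libraries, with homograft columns left of the thick line, heterograft columns right of it, and genes grouped by whether limma's adjusted p called a change from SCD to SVC. Colour gives log2(FPKM + 1) minus the gene's mean over all libraries, and values beyond 3 in either direction take the end colour. The SSS columns hold the highest values for most genes, DCF stands above SCF, and SCF replicate 2 is the lowest SCF column for 76 of the 100 genes.

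The values used for the choice are given here as a description only. On day 1 the differences of members (heterograft minus homograft) ran from −2.20 to −0.74 on the log2(FPKM + 1) scale with a median of −1.03, and on day 5 from 0.74 to 1.65 with a median of 0.96. Day 1 set the score of 42 members and day 5 that of 58. The 3 DSS libraries lay below all 3 SSS libraries for 69 members (11.7% of all genes tested), and the DCF libraries lay above all SCF libraries for 78 (8.62%). Differentially expressed genes (DEGs) were called at the study's thresholds, an absolute log2 fold change above 1 and a p below 0.05. The study applied these in DESeq. Here they were applied to limma's unadjusted p and to differences of log2(FPKM + 1), so the calls need not match the study's. By this rule 51 members were lower in DSS vs. SSS (1.68% of all genes tested) and 40 were higher in DCF vs. SCF (0.948%). Nothing is read from these counts, since the same values chose the genes.

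The time courses up to day 5 rest on the values that chose the members, and a lower level after the chosen day-5 heterograft values follows in part from the choice, so they are described and nothing is read from them. From day 1 to day 5 the median member was 1.44 lower in homografts and 0.69 higher in heterografts, on the log2(FPKM + 1) scale. For 79 members the homograft mean was lower and the heterograft mean higher on day 5 than on day 1, for 18 both means were lower, and for 3 both were higher. On day 9 the heterograft mean was below that of day 5 for 98 members (median difference −0.94). The homograft mean was above that of day 5 for 69 members and below it for 31 (median 0.22), a count that rested on single libraries. Without SCF replicate 2 it was above for 51 (median 0.02), without SCD replicate 3 for 58 (median 0.06), and without both for 40 (median −0.10). The highest of the 8 condition means was SSS for 67 members and DCF for 21, and the remaining 12 peaked on day 9 or day 30. The lowest was SVC for 48 members and DSS for 23.

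**Figure D2:**
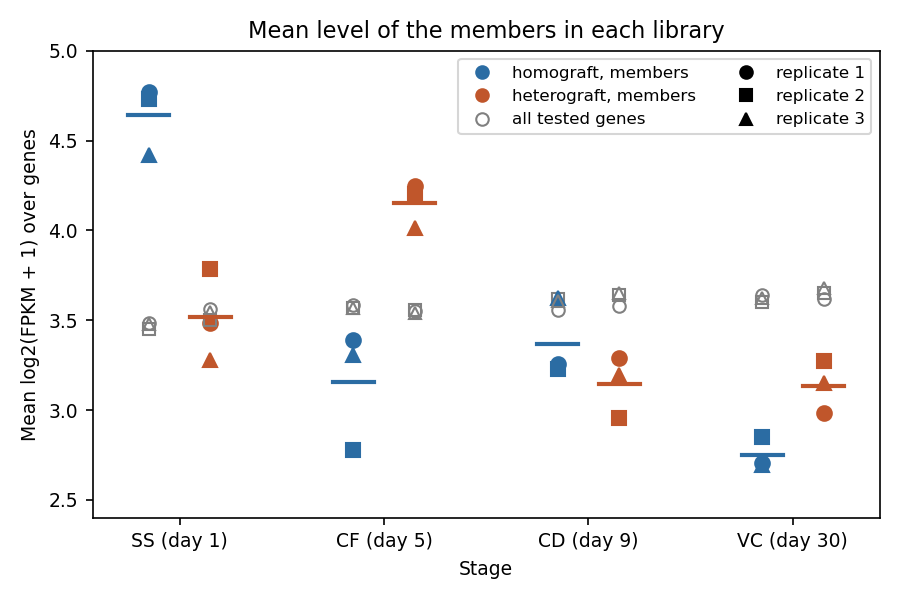
Mean log2(FPKM + 1) of the 100 reversing genes in each of the 24 libraries (filled symbols) by stage and graft type, with a horizontal bar for the mean of the 3 libraries and open grey symbols for the mean over all genes tested. The homograft libraries are highest on day 1 (4.42 to 4.77), the heterograft libraries are highest on day 5 (4.01 to 4.25), SCF replicate 2 (2.78) lies within the range of the day-30 homografts (2.69 to 2.85), and the axis does not start at 0.

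The limit of the list fell within a continuous run of scores. Members' scores ranged from 0.740 to 1.41 with a median of 0.872. The members just inside were Pbr022348.1 (0.741), Pbr018581.1 (0.741) and Pbr031889.1 (0.740), and the genes just outside were Pbr003488.1 (0.739), Pbr007329.2 (0.737) and Pbr015755.1 (0.736). When the rule was applied again without SCF replicate 2, 88 members still scored at least 0.5 and 65 were still among the 100 largest. Without each of the other libraries of days 1 and 5 in turn, 74 to 85 were still among the 100. With a pseudocount of 0.1 in place of 1, all 100 still scored at least 0.5 but 43 remained among the 100 largest.

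Pbr029175.1 had the largest score, 1.41. Its level was 6.78, 12.9 and 5.40 FPKM in SSS and 0.846, 1.16 and 1.01 FPKM in DSS, then 4.90, 1.18 and 2.67 FPKM in SCF and 15.4, 4.08 and 9.58 FPKM in DCF. The libraries were fully separated on day 1, while on day 5 DCF replicate 2 lay below SCF replicate 1. On day 30 it was back at 5.32, 9.37 and 12.1 FPKM in SVC and 6.97, 9.44 and 9.80 FPKM in DVC, so its high day-30 level was shared by both graft types. The next scores belonged to Pbr027916.1 (1.25) and Pbr027910.1 (1.22), which are described with their neighbours.

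Pbr004103.1 (score 1.19) was a low gene with a large day-5 difference. It was measured at 3.13, 4.10 and 2.49 FPKM in SSS against 0.568, 0.556 and 1.56 FPKM in DSS, and at 2.79, 1.13 and 3.04 FPKM in SCF against 4.58, 12.1 and 11.8 FPKM in DCF. The groups did not overlap at either stage, and DCF replicates 2 and 3 were the highest of all 24 libraries. Pbr037476.1 (score 1.14), at a much higher level, had 130, 144 and 122 FPKM in SSS and 51.4, 90.2 and 44.8 FPKM in DSS. On day 5 it had 37.8, 27.1 and 31.3 FPKM in SCF and 88.8, 76.7 and 73.6 FPKM in DCF, again with no overlap. The other members among the 12 largest scores were Pbr007791.1, Pbr017989.1, Pbr021845.1, Pbr022747.1, Pbr019688.1, Pbr008325.1 and Pbr025263.1, with scores of 1.10 to 1.20.

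The time course of Pbr022058.1 differed from that of most members. In DSS it had 0, 1 and 0 reads, against 3.46 ± 0.813 FPKM (SD, n = 3) in SSS. It stood at 7.93, 10.5 and 3.94 FPKM in DCF and at 4.11, 5.89 and 14.0 FPKM in SVC, its highest condition mean. Pbr040116.1 lay at the other extreme, with 25.1, 18.1 and 21.5 FPKM in SSS and 0, 0.164 and 0 FPKM in SVC, the latter resting on 1 read in 3 libraries. Its mean was lower on day 5 than on day 1 in both graft types, at 10.9 FPKM in DSS and 3.93 FPKM in DCF against 0.802 FPKM in SCF, and it is 1 of the 18 members with that course.

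**Figure D3:**
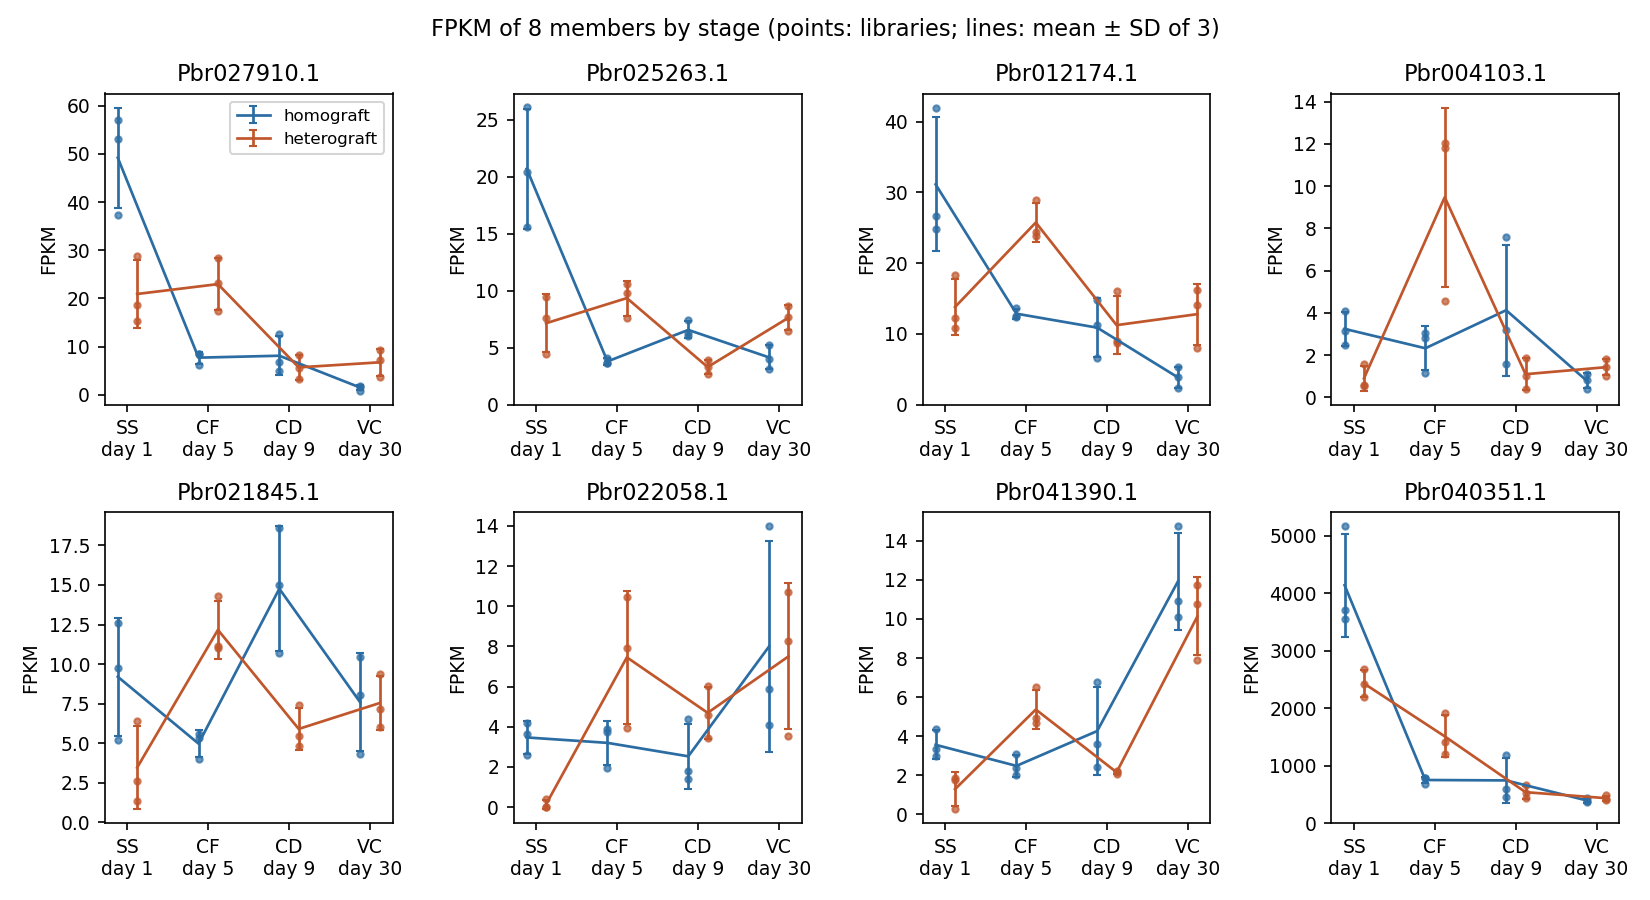
FPKM of 8 reversing genes in every library (points), by stage and graft type, with lines for the mean and error bars for the SD of 3 libraries, 1 panel a gene with its own axis. Pbr027910.1 and Pbr012174.1 show DVC libraries above all SVC libraries, Pbr025263.1 changes order between day 9 and day 30, Pbr041390.1 is higher on day 30 in both graft types, and Pbr040351.1 is highest in SSS.

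The most abundant member by far was Pbr040351.1, with a mean of 1368 FPKM over 24 libraries. It had 3543, 5171 and 3704 FPKM in SSS against 2674, 2202 and 2412 FPKM in DSS, and 785, 687 and 781 FPKM in SCF against 1915, 1412 and 1203 FPKM in DCF. Neither stage had an overlap. By day 30 the graft types lay together at 378, 361 and 444 FPKM in SVC and 399, 423 and 482 FPKM in DVC. The next most abundant were Pbr010591.1, Pbr016474.1, Pbr018758.1 and Pbr027907.1. Of these, Pbr018758.1 varied widely between replicates on day 1, with 313, 839 and 565 FPKM in SSS against 200, 200 and 330 FPKM in DSS, so that its groups overlapped by DSS replicate 3. The median over members of the mean FPKM was 10.8, the same as over all genes tested.

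Some members were neighbours by identifier, a feature the choice did not use. With identifier numbers no more than 10 apart counted as a run, 18 of the 100 members belonged to 7 runs, against 4 of 100 genes chosen by the opposite rule (higher in heterografts on day 1, lower on day 5). The longest held 5 members, Pbr027907.1, Pbr027908.1, Pbr027910.1, Pbr027916.1 and Pbr027917.1, and the only other tested identifier within it scored 0.703, just below the limit of the list. Of these, Pbr027908.1, Pbr027910.1 and Pbr027916.1 had the same coding length of 1173 bases, as did Pbr021494.1 and Pbr021495.1 of another run. That length was shared by 5% of members and 0.171% of all genes tested. Numbers close together may lie close on a chromosome, but no coordinates were used here. Where neighbouring genes are near-identical copies, a read may have been assigned to 1 of them, counted for several or left out. The study names HTSeq for gene counts but not how reads with several alignments were treated. The values of single genes in a run are therefore uncertain and the runs are not independent counts.

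The 5 neighbours shared the day-1 and day-5 pattern, which the choice of members fixes, and differed in level. Pbr027910.1 stood at 57.1, 53.1 and 37.4 FPKM in SSS, 15.3, 28.8 and 18.6 FPKM in DSS, 8.45, 6.26 and 8.35 FPKM in SCF and 28.3, 23.1 and 17.4 FPKM in DCF. Pbr027916.1 followed at 48.8, 38.1 and 27.9 FPKM in SSS, 11.97, 21.1 and 10.3 FPKM in DSS, 8.91, 5.51 and 9.60 FPKM in SCF and 22.4, 18.6 and 19.1 FPKM in DCF. For both, all libraries of the graft types were separated at both stages, whose values chose the genes. Pbr027907.1 was the exception in its course, because its mean in homografts went from 138.5 FPKM in SSS to 175.4 FPKM in SCF and 226.8 FPKM in SCD. Its heterograft mean went from 46.6 FPKM in DSS to 298.4 FPKM in DCF. The median coding length of members was 771 bases (192 to 4494) against 1101 bases for all genes tested, but it was 772.5 bases for the genes of the opposite rule, so short length was not particular to the members.

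Day 9 is the first stage that the choice of members did not use. There the order of the graft types was weakly that of day 1, with 71 members lower and 29 higher in DCD vs. SCD and a median difference of −0.19 on the log2(FPKM + 1) scale. Among all genes tested 45.5% were lower, and the median was 0.02. As DEGs, 3 members were lower (0.171% of all genes tested) and 0 were higher (0.357%), in a limma fit over all 24 libraries. At an unadjusted p below 0.05 alone, 18 members were lower (2.45%) and 0 were higher (3.31%), and after Benjamini-Hochberg adjustment over all genes 0 members passed (0.0409%). With voom on the recovered reads, 4 members were lower DEGs and 0 higher. Libraries of the graft types did not overlap for 16 members with heterografts below (4.19%) and for 2 with heterografts above (5.64%). The difference leaned on SCD replicate 3, the highest SCD library for 68 members. Without it the median was −0.05, 54 members were lower and 46 higher, and 2 members were DEGs in the higher direction. With a pseudocount of 0.1 there were 5 lower DEGs and 1 higher. Without DCD replicate 1 there were 6 lower DEGs, without SCD replicate 1 there were 5, and without DCD replicate 2 there was 1 higher DEG. The shares over all genes tested belong to the main fit, so the counts under these alternatives have none beside them.

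The 3 members called as lower DEGs on day 9 had coding lengths of 261 to 618 bases, below the members' median. Pbr021845.1 had 10.7, 15.02 and 18.6 FPKM in SCD and 5.47, 4.83 and 7.39 FPKM in DCD, with no overlap, a log2 fold change of −1.18 (SE 0.352) and limma's adjusted p of 0.596. Pbr004103.1 had 3.21, 1.59 and 7.58 FPKM in SCD and 0.385, 1.02 and 1.87 FPKM in DCD. DCD replicate 3 lay above SCD replicate 2, and the log2 fold change of −1.18 (limma's adjusted p = 0.692) shrank to −0.72 without SCD replicate 3 and to −0.91 without DCD replicate 1. Pbr009025.1 had 1.41, 2.49 and 4.61 FPKM in SCD and 1.53, 0.496 and 0.266 FPKM in DCD, an overlap, with a log2 fold change of −1.10 and limma's adjusted p of 0.840. Its call was lost without DCD replicate 2 (−1.01), DCD replicate 3 (−0.89), SCD replicate 2 (−1.13) or SCD replicate 3 (−0.78), and in a fit of the 6 libraries paired by replicate number (−1.10, limma's adjusted p = 0.735). Counting all alternatives run, 7 weakened its result and 8 left it the same. None of the 3 passed adjustment, and an exact permutation test of 3 libraries against 3 cannot give a p below 0.1.

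**Figure D4:**
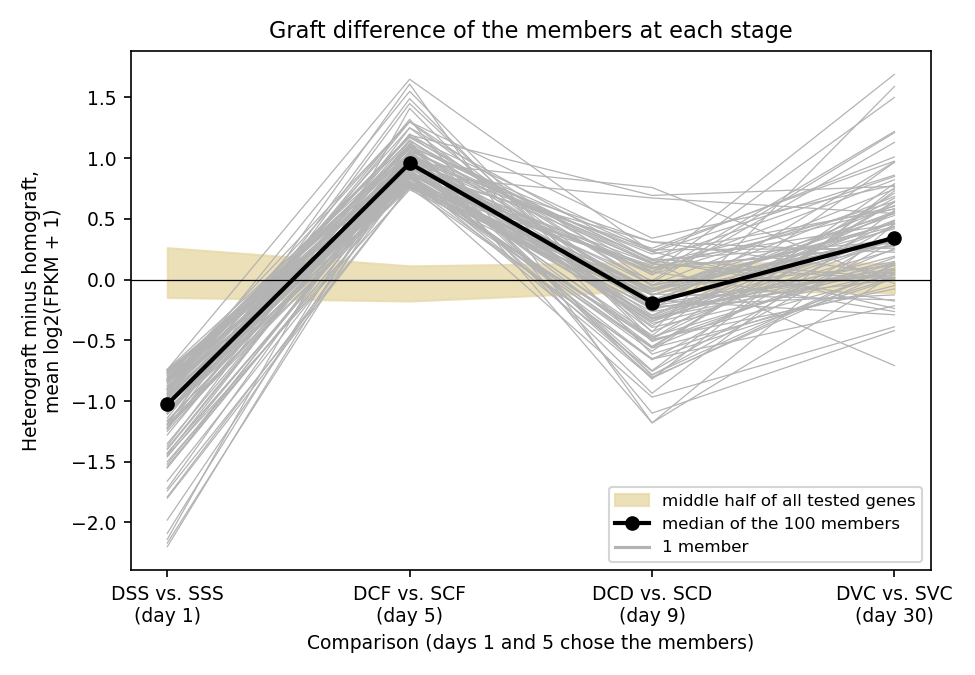
Difference in mean log2(FPKM + 1) between heterografts and homografts for each of the 100 reversing genes (grey lines) at the 4 stages, with their median in black and a shaded band between the quartiles of all genes tested. The medians of the reversing genes are −1.03 and 0.96 on days 1 and 5, which the choice fixes, and −0.19 and 0.34 on days 9 and 30, which it did not use.

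On day 30 the reversing genes were mostly higher in heterografts. So were the 100 genes of the opposite rule (78 higher, median difference 0.39), which were chosen as lower in heterografts on day 5. In DVC vs. SVC, 86 members were higher and 14 lower, with a median difference of 0.34 and middle values from 0.08 to 0.62 (quartiles), against 51.7% of all genes tested higher and a median of 0.01. As DEGs, 7 members were higher (0.547% of all genes tested) and 0 were lower (0.126%). Among the 7, Pbr027908.1 and Pbr027910.1 belong to the same run of identifiers and share a coding length with Pbr021495.1. They may not be independent counts. At an unadjusted p below 0.05, 25 members were higher (4.34%) and 0 lower (2.93%), and 1 passed adjustment (0.242%). The DVC libraries lay above all SVC libraries for 24 members (6.80%) and below for 0 (5.12%). Leaving out each of the 6 libraries in turn kept the median between 0.32 and 0.44, and without SVC replicate 2 the number of higher DEGs was 11. With a pseudocount of 0.1 it was 16. The shares over all genes tested belong to the main fit, and none are given for these alternatives.

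Pbr012174.1 was the member that passed adjustment. It had 2.34, 5.26 and 3.95 FPKM in SVC and 14.2, 16.3 and 7.97 FPKM in DVC, so that its lowest heterograft library was above its highest homograft library. The log2 fold change was 1.50 (SE 0.302), with limma's adjusted p of 0.0350. On day 9 the same gene had stood at 11.3, 6.54 and 14.9 FPKM in SCD and 16.0, 8.66 and 9.07 FPKM in DCD, where the groups overlapped. Its neighbours by number, Pbr012173.1 and Pbr012182.1, had means of 2.65 and 6.68 FPKM in SVC and 4.71 and 10.4 FPKM in DVC.

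The other day-30 DEGs did not pass adjustment. Pbr027910.1 came closest, with 1.69, 1.90 and 0.858 FPKM in SVC and 7.28, 9.23 and 3.63 FPKM in DVC, no overlap, and a log2 fold change of 1.59 (SE 0.341, limma's adjusted p = 0.0592). Its neighbour Pbr027908.1 had 0.809, 2.04 and 1.29 FPKM in SVC and 4.98, 7.01 and 2.30 FPKM in DVC, also without overlap. Its log2 fold change was 1.22 (limma's adjusted p = 0.386) and 0.93 without DVC replicate 2. Counting all alternatives run, 2 weakened this result and 13 left it the same. Pbr021495.1 had 1.98, 2.32 and 1.79 FPKM in SVC and 6.64, 7.61 and 3.38 FPKM in DVC, a log2 fold change of 1.13 that was 0.94 without DVC replicate 2. The highest difference, 1.69 on the log2(FPKM + 1) scale, was that of Pbr019089.1. It had 1.68, 0.966 and 1.42 FPKM in SVC and 9.91, 10.7 and 2.34 FPKM in DVC. The difference rested on the high DVC replicates 1 and 2, and the call was lost without either (1.42 and 1.37). Pbr013417.1 had 2.69, 0.859 and 3.50 FPKM in SVC and 2.90, 7.82 and 10.1 FPKM in DVC, where DVC replicate 1 lay below SVC replicate 3. Its log2 fold change of 1.21 was 0.90 without DVC replicate 3 and 0.83 without SVC replicate 2. The remaining day-30 DEG, Pbr025339.1, had 0, 2.27 and 0.772 FPKM in SVC and 5.33, 1.09 and 2.58 FPKM in DVC, an overlap. Its log2 fold change of 1.01 (limma's unadjusted p = 0.0494, limma's adjusted p = 0.685) was just inside both thresholds.

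Between day 9 and day 30 many more of the reversing genes were called lower in homografts than in heterografts. From SCD to SVC, 46 members fell (10.5% of all genes tested) and 7 rose (13.7%) by limma's adjusted p below 0.05, and the median difference was −0.71. From DCD to DVC, 10 members fell (9.04%) and 10 rose (11.6%), and the median difference was 0.01 (−0.03 to 0.12 on leaving out each library in turn). Without SCD replicate 3 the homograft falls numbered 30. The homograft rises numbered 1 without SCD replicate 2 and 3 without SCD replicate 1 or without SVC replicate 3. The heterograft rises numbered 5 without DCD replicate 2, and the heterograft falls 5 without DCD replicate 1. In a fit on the 6 libraries compared alone, the heterograft falls numbered 4. The shares given above belong to the main fit. Of the 100 members, 10 fell in both graft types, 36 were called lower in homografts with no call in heterografts, 5 rose in both, 2 were called higher in homografts with no call in heterografts, 5 the other way round, and 42 were called in neither. These joint counts were not made over all genes tested, so they have no shares beside them and are a description only. A call in one graft type and not the other is no test of a difference, which is given further on.

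Genes that fell in both graft types included several of the neighbours by number, which are not independent counts. Pbr027917.1 went from 15.3, 12.7 and 17.9 FPKM in SCD to 0.343, 2.62 and 1.00 FPKM in SVC, a log2 fold change of −2.92 (SE 0.400, limma's adjusted p = 6.7e-05). In heterografts it went from 24.6, 14.1 and 12.3 FPKM to 2.29, 2.58 and 1.78 FPKM (−2.43, limma's adjusted p = 4.9e-04). Pbr042256.1 fell by 1.90 on the log2(FPKM + 1) scale in homografts and by 1.46 in heterografts. In homografts it went from 3.52, 3.77 and 3.48 FPKM to 0.180, 0.344 and 0.175 FPKM, where this scale understates a fold change. Pbr027907.1 and Pbr027908.1 fell by 2.21 and 2.56 in homografts, and Pbr021494.1 and Pbr002197.1 fell by 2.30 and 0.98 in heterografts. For Pbr002197.1 the call was lost in the fit on the 6 libraries alone.

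A few members rose again. Pbr041390.1 rose in both graft types, from 3.59, 2.42 and 6.78 FPKM in SCD to 10.9, 10.1 and 14.8 FPKM in SVC (log2 fold change 1.36, limma's adjusted p = 0.00192). In heterografts it rose from 2.18, 2.20 and 2.06 FPKM to 10.8, 11.7 and 7.89 FPKM (1.80, limma's adjusted p = 3.7e-04). Pbr023040.1 rose by a log2 fold change of 1.90 in homografts and 2.62 in heterografts, where it went from 2.32, 1.29 and 1.86 FPKM to 20.9, 11.8 and 16.9 FPKM. The homograft call of this gene was lost without SCD replicate 2 (1.39). Pbr029175.1, the member of largest score, rose by 1.41 in homografts and 2.05 in heterografts, and the homograft call was lost without SCD replicate 2 (1.14) or SVC replicate 3 (1.18). Pbr022058.1 rose by 1.29 in homografts, a call lost without SCD replicate 1 (1.06), SCD replicate 2 (1.17) or SVC replicate 3 (0.84). Counting all alternatives run, 5 weakened this result and 10 left it the same.

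**Figure D5:**
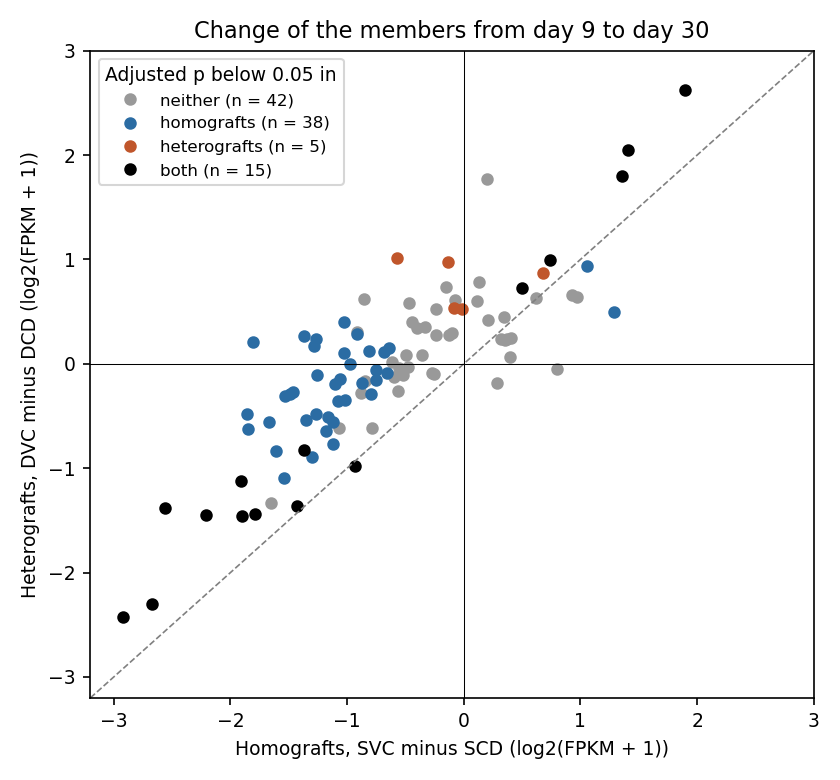
Log2 fold change from day 9 to day 30 on the log2(FPKM + 1) scale for each of the 100 reversing genes, homografts on the x axis and heterografts on the y axis, coloured by the graft type in which limma's adjusted p was below 0.05. Most points lie above the line of equal change, and 46 genes fell in homografts against 10 in heterografts.

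The members can be grouped by their homograft course, but the SVC libraries then enter both the grouping and the day-30 comparison, so the groups are described without a test. Among the 46 that fell from SCD to SVC, the median member stood at 36.7 FPKM in SSS, 8.66 FPKM in SCF, 9.02 FPKM in SCD and 2.56 FPKM in SVC. In heterografts it stood at 14.7 FPKM in DSS, 17.6 FPKM in DCF, 7.496 FPKM in DCD and 5.07 FPKM in DVC, and 45 of the 46 were higher in DVC than in SVC. Among the 47 that were not called, 38 were higher in DVC, and among the 7 that rose, 3 were.

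Taken with its sign, the heterograft minus homograft difference was more positive on day 30 than on day 9 for 88 members. It was more negative for 12. The median of this change was 0.60 on the log2(FPKM + 1) scale against −0.01 for all genes tested. In the interaction term of the limma fit, 29 members were more positive on day 30 at an unadjusted p below 0.05 (2.69% of all genes tested) and 0 more negative (2.28%). These include genes whose difference moved towards 0, such as Pbr021845.1 (−1.18 on day 9 and 0.04 on day 30). After adjustment 0 members and 0 of all genes tested passed, and with voom on the recovered reads 0 members passed. Pbr025263.1 had the smallest p, with heterografts below homografts on day 9 (3.31, 3.91 and 2.68 against 6.24, 6.02 and 7.40 FPKM) and above them on day 30 (7.73, 8.64 and 6.49 against 4.04, 3.15 and 5.24 FPKM). Its groups overlapped at neither stage, and the difference of effects was 1.58 (SE 0.305, limma's adjusted p = 0.398). For Pbr027910.1 the difference was 2.02 (limma's adjusted p = 0.612), and for Pbr038107.1 it was 1.20 (limma's adjusted p = 0.613), from 50.3, 61.0 and 70.0 FPKM in SCD and 50.4, 39.9 and 38.0 FPKM in DCD to 26.2, 33.9 and 34.5 FPKM in SVC and 43.7, 54.6 and 58.4 FPKM in DVC.

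Genes chosen by the opposite rule gave a reference from the same libraries. A score of at least 0.5 was reached by 532 genes, and the 100 largest were taken. On day 9 these had a median difference of 0.16 with 65 higher in heterografts, opposite in sign to the reversing genes. On day 30 their median was 0.39 with 78 higher, and 13 were called as higher DEGs and 2 as lower. From SCD to SVC 46 of them fell and 3 rose, and from DCD to DVC 16 fell and 3 rose. Their graft difference was more positive on day 30 than on day 9 for 70 and more negative for 30, with a median of 0.35. In the interaction term of the limma fit, 4 were more positive and 4 more negative at an unadjusted p below 0.05. Mostly higher day-30 levels in heterografts, falls from SCD to SVC and a mostly more positive graft difference on day 30 were thus counted in both sets.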

How the data were processed

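RNA of graft unions was sequenced in 24 libraries, 3 for each of 8 conditions. The FPKM values deposited by the authors, 1 table per library, were made with Cutadapt (trimming), HISAT2 (alignment) and HTSeq (gene counts), and correct for coding length and library total but not for composition. In each of the 32966 genes with values above 0 in 4 libraries or more, the FPKM steps gave whole reads (within 0.02 reads), and these supplied the depths. Coding lengths came from the same steps and were multiples of 3 for all 26895 genes tested.

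Values were taken as log2(FPKM + 1), and a fold change on this scale understates that of low genes. Genes with at least 1 FPKM in at least 3 libraries were tested with limma 3.58.1 (R 4.3.3, Python 3.11.15), in 1 fit over the 24 libraries with 1 mean per condition, an empirical Bayes trend and Benjamini-Hochberg adjustment over the 26895 genes. DEGs followed the study's thresholds with unadjusted p. The fit also covers days 1 and 5, but only comparisons among days 9 and 30 are read as tests. Deviations from the condition means of equally numbered homograft and heterograft libraries correlated at 0.133 to 0.178 on day 9 in all 3 pairs. Over the 4 stages, such pairs ran from −0.097 to 0.178 (median 0.01) and unequally numbered pairs from −0.178 to 0.193 (median −0.02). The labels do not state a pairing and these correlations do not establish one. Replicate blocks were therefore run as alternatives only. P-values measure the spread between libraries, which is biological only as far as the labels say. The limma fit was tested on simulated data, for DCD vs. SCD only and with the same spread setting for every gene. The other steps were not tested in this way.

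The members, lists and tests were chosen with earlier results of these data known. Genes were named by rule: the 12 largest and 3 smallest scores, the 3 genes just outside, the 5 highest mean FPKM, up to 6 DEGs at CD and at VC by size, up to 4 members per direction and graft type from day 9 to day 30, and the 3 smallest p of the interaction. Pbr012173.1, Pbr012182.1, Pbr022408.1, Pbr025339.1 and Pbr040116.1 were named after their values were seen. Alternatives were a pseudocount of 0.1, other filters, upper-quartile scaling, voom on recovered reads, the 6 libraries compared alone, a replicate block and leaving out each library. The re-selection of members, the alternatives of the interaction, a replicate block on day 9 only or with the 6 libraries, and the steps between stages without single libraries were added after seeing the data. The order of the heterograft cultivars follows the sample labels and the study's methods.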

Additional observations from a re-analysis of the deposited data

Results flagged for a closer look

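For Pbr025263.1 every heterograft library was below every homograft library on day 9 and above every one on day 30, and the graft effect differed by 1.58 on the log2(FPKM + 1) scale between the stages. Pbr022408.1 showed the same exchange, with 10.9, 11.4 and 12.3 FPKM in SCD, 8.82, 6.36 and 9.41 FPKM in DCD, 5.91, 4.88 and 4.71 FPKM in SVC and 7.32, 12.3 and 14.6 FPKM in DVC, and a difference of 1.43. Neither difference passed adjustment in the interaction term of the limma fit (adjusted p = 0.398 and 0.764).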

How the results depend on the processing

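The medians in DCD vs. SCD and DVC vs. SVC kept their direction under the alternatives run. So did the genes named by rule for a comparison on days 9 and 30, in that comparison. The median from DCD to DVC, close to 0, was −0.01 with upper-quartile scaling or a pseudocount of 0.1. With a pseudocount of 0.1, the members called as DEGs were 1 higher and 5 lower in DCD vs. SCD, and 16 higher in DVC vs. SVC. With adjusted p in place of unadjusted p, they were 0 lower in DCD vs. SCD and 1 higher in DVC vs. SVC. In the fit on the 6 libraries compared alone, 4 members fell from DCD to DVC. With voom on recovered reads, the median in DVC vs. SVC was 0.48. Leaving out 1 library at a time gave 0 to 2 higher and 2 to 6 lower DEGs in DCD vs. SCD, and 5 to 11 higher and 0 lower DEGs in DVC vs. SVC. It gave 1 to 9 rises and 30 to 41 falls from SCD to SVC, 5 to 10 rises and 5 to 10 falls from DCD to DVC, medians of −0.29 to −0.05 in DCD vs. SCD and 0.32 to 0.44 in DVC vs. SVC, and 0 members in the adjusted interaction. The causes were not tested beyond the smaller number of libraries. For the alternative fits, the counts of members called are given without shares over all genes tested.

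Equally numbered libraries deviated together on day 9 but at no other stage in all 3 pairs, which does not establish a pairing. With a replicate block on day 9 only, there were 0 higher and 3 lower DEGs in DCD vs. SCD, 7 rises and 44 falls from SCD to SVC, and 12 rises and 11 falls from DCD to DVC. With the block in the 6 day-9 libraries alone, there were 0 higher and 2 lower DEGs, and the call of Pbr009025.1 was lost. With a replicate block at all stages the DEGs were 0 higher and 3 lower in DCD vs. SCD and 6 higher and 0 lower in DVC vs. SVC, the changes were 7 rises and 45 falls from SCD to SVC and 11 rises and 10 falls from DCD to DVC, and the adjusted interaction had 0 members. The block lost no other call of the genes named by rule for these comparisons.

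Members with few reads limit what depth can show, and Pbr015314.1 had 0 reads in SVC.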
